A study of Mus musculus with 2 samples.

Results

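The ubiquitin-specific proteases (USPs) were followed in single-cell RNA profiles of immune cells from mouse gum tissue (gingiva). Every gene whose symbol was Usp followed by a number, with or without 1 further letter, was taken, which gave 50 genes of 32285 in the count matrices. The study compared C57BL/6 mice labelled Otud1-/- with WT C57BL/6 mice in the context of experimental periodontitis, and each genotype had 1 library. Neither the age, sex or number of the animals, nor the treatment of each group, nor the part of Otud1 that was deleted was given in the sources used here. With 1 library per genotype no test was possible, so every difference between the libraries lacks a replicate check and the 95% intervals below cover counting error only.

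Ubiquitin is a small protein that is attached to other proteins and marks them for destruction, transport or signalling. Deubiquitinases take it off again, and the USPs are the largest family of them in mammals. They are cysteine proteases with a shared catalytic fold, in which a short stretch called the Cys box carries the catalytic cysteine. Individual USPs act on histones, on the p53 regulator Mdm2, on receptors in endosomes, on damaged mitochondria or at the proteasome, and Usp18 removes the ubiquitin-like protein Isg15 instead of ubiquitin. OTUD1 itself belongs to another deubiquitinase family, the OTU proteases.

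The library labelled Otud1-/- had 8109 barcodes and 44083735 UMIs (unique molecular identifiers, each standing for 1 captured transcript), and the WT library had 13267 barcodes and 44878537 UMIs. After filtering, 6486 cells with a median of 4170.5 UMIs were kept from the library labelled Otud1-/-, and 11414 cells with a median of 2305 UMIs from WT. Otud1 went against the label: 33 CPM (UMIs of a gene scaled to a common total) in the library labelled Otud1-/- (interval 31.2 to 34.9), against 18.5 CPM in WT (17.1 to 19.9). Since the deleted part is not given, it is not known whether the 3′ end that was counted lies inside it or whether the labels are exchanged, and every direction below follows the labels. Xist, the transcript of the inactive X chromosome, was found in 3 kept cells of the library labelled Otud1-/- and in 3925 kept WT cells, so the libraries also differed in the sex of their cells. The libraries shared 37 barcodes, 24 of them among kept cells. In all, 46557 UMIs of the library labelled Otud1-/- and 50440 UMIs of WT belonged to the 50 genes.

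Cells were clustered with the USP genes left out of the variable genes, and clusters took a name only from cell type markers, so that a class name means resemblance to that cell type. The classes with at least 100 cells in both libraries were neutrophils (913 cells in the library labelled Otud1-/-, 911 in WT), monocytes/macrophages (623 and 2427, in the same order of libraries), dendritic cells (354 and 912), B cells (2872 and 2088), T cells (875 and 1882) and NK cells (218 and 463). Neutrophils differed in their makeup, as the library labelled Otud1-/- placed 850 of them in cluster 23 and WT 339, whereas cluster 6 held 46 and 455. Of the unnamed clusters, cluster 2 (123 and 562 cells) was led by Esco2, Rrm2 and replication-dependent histone genes, and cluster 13 (208 and 418 cells) by Rgs13 and Mef2b.

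The Cys boxes of the genes that carry the results are printed here to make visible what the family shares and where near copies differ. Each is 39 coding bases, 5′ to 3′, with the codon of the catalytic cysteine in capitals, and was read from the longest open reading frame of the GENCODE M21 transcripts (GRCm38).
Usp32: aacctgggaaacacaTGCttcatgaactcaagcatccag
Usp2: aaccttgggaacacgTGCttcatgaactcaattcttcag
Usp12: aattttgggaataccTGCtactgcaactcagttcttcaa
Usp46: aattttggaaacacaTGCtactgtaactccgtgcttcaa
Usp48: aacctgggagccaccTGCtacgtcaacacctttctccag
Usp3: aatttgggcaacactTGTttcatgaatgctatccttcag
Usp34: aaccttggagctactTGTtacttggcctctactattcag
Usp24: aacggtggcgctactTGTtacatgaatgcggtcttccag
Usp9x: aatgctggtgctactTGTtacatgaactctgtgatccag
Usp9y: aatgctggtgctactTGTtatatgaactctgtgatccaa
Usp1: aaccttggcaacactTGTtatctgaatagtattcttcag
Usp18: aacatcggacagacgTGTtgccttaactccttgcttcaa
The box was searched as 13 codons with asparagine at position 1, glycine or alanine at position 3, cysteine at position 6, an aromatic residue or cysteine at position 7 and glutamine at position 13. It was found once in 47 of the 50 genes and not in Usp39, Usp53 and Usp54, which says only that these letters are not there. Over all pairs of boxes the median was 25 identical bases of 39. The X- and Y-linked copies Usp9x and Usp9y shared 37, and the paralogs Usp12 and Usp46 shared 33. The open reading frames ran from 366 codons in Usp46 to 3582 in Usp34. In these genes the box lay at different depths of the reading frame, with the catalytic cysteine at codon 48 in Usp12, at codon 743 in Usp32 and at codon 1940 in Usp34.

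The family was dominated by a few genes. Levels are CPM of the UMIs summed over a class, and since the 3′ assay gives 1 UMI per captured transcript whatever its length, they were compared between genes without dividing by length. Over all kept cells the highest was Usp34 (chr11:23306895-23490560), a very large USP known from Wnt signalling, with 99.1 CPM in the library labelled Otud1-/- and 113 CPM in WT. Usp9x (chrX:13071498-13173328), which stabilises many substrates including Mcl1, had 83.0 CPM in the library labelled Otud1-/- and 91.8 CPM in WT. Usp7, which removes ubiquitin from Mdm2 and p53, had 83.5 CPM in the library labelled Otud1-/-, against 90.8 CPM in WT. Usp15, a paralog of Usp4 and Usp11, had 81.7 CPM in the library labelled Otud1-/- and 83.0 CPM in WT. Usp9x, Usp7 and Usp15 thus stood close together below Usp34 in both libraries.

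Usp16, a histone H2A deubiquitinase, had 78.1 CPM in the library labelled Otud1-/- and 73.2 CPM in WT. Usp25, a USP with roles in inflammatory signalling, had 60.4 CPM in the library labelled Otud1-/- and 65.7 CPM in WT. Below them Usp1, Usp19, Usp38 and Usp8 lay between 43.2 and 48.3 CPM in the library labelled Otud1-/-, and between 46.0 and 50.3 CPM in WT. These 10 genes held 54.3% of all USP UMIs in each library. In the mean of both libraries 22 genes had at least 20 CPM and 28 had less. The order of the 50 genes was nearly the same in both libraries (Spearman rho 0.997 across genes, which share their libraries and are not replicates).

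**Figure D1:**
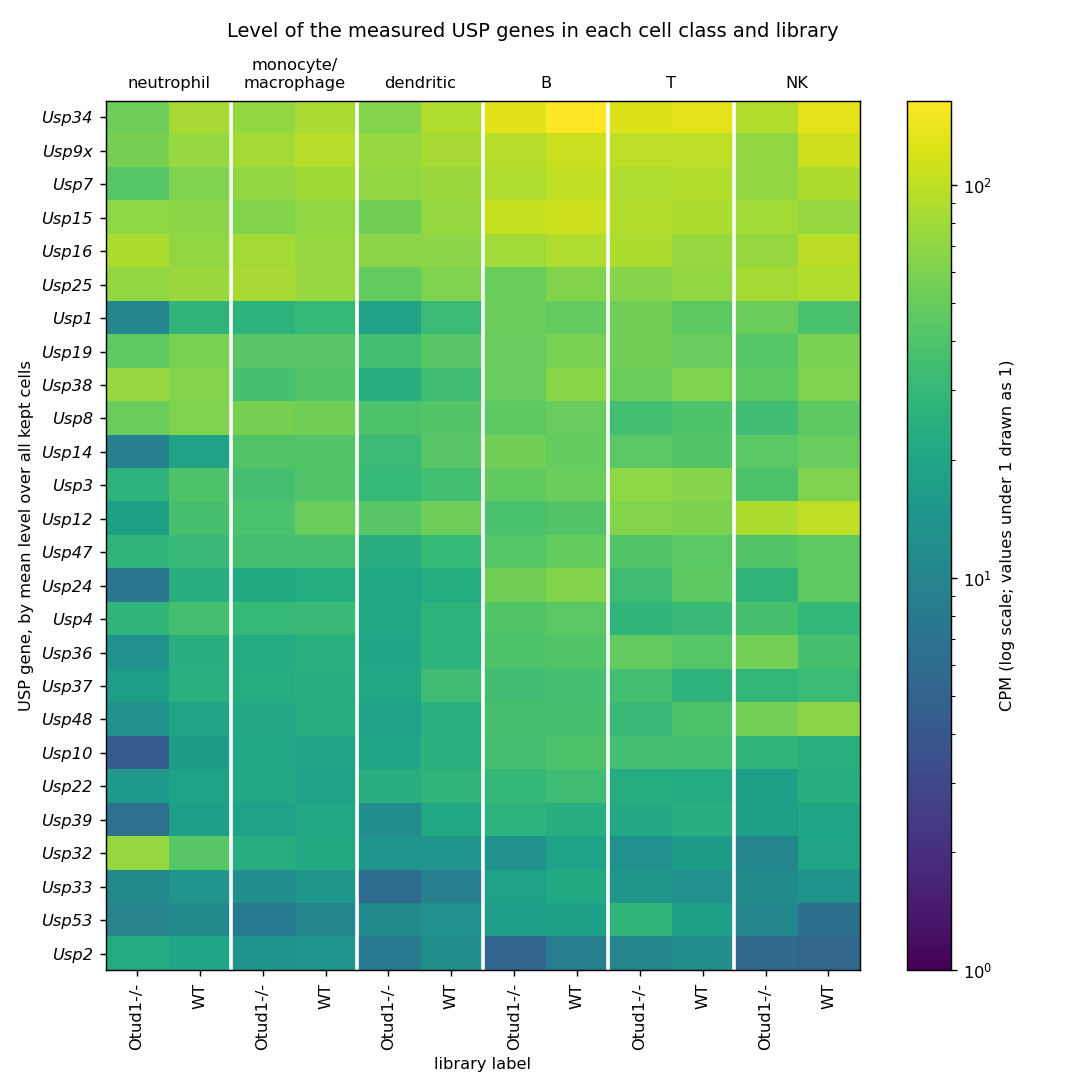
Level in CPM on a log colour scale of the 26 USP genes measured in at least 1 class, with the library labelled Otud1-/- left of WT in each of the 6 classes. Usp34 is brightest in B and T cells, Usp32 stands out in neutrophils, and Usp1, Usp10, Usp14 and Usp24 are dark in the neutrophils of the library labelled Otud1-/-.

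At the low end, no UMI of Usp9y, Usp26 or Usp29 was found in either library, which allows up to 0.0791 CPM in the library labelled Otud1-/- and 0.0781 CPM in WT (3 counts per library). Usp13, a relative of Usp5, had no UMI in the library labelled Otud1-/- and 1 in WT. Usp43 had 1 UMI in the library labelled Otud1-/- and 2 in WT, and Usp51 had 6 and 3 in that order of libraries. Usp30, the USP of the outer mitochondrial membrane that opposes mitophagy, had 124 UMIs (3.27 CPM) in the library labelled Otud1-/- and 119 UMIs (3.1 CPM) in WT. Usp5, which takes apart free ubiquitin chains, had 17.1 CPM in the library labelled Otud1-/- and 19.6 CPM in WT, and so lay just under the level that was compared. Usp50 overlaps Usp8 on the other strand, and Usp10, Usp15 and Usp49 share exon positions with predicted genes on their own strand, so their counts are less certain.

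A gene was called measured in a class when its mean over both libraries was at least 20 CPM and both libraries together held at least 50 UMIs. A gene could therefore pass through 1 library alone, as did for example Usp53 in T cells, Usp1 in dendritic cells and Usp12 in neutrophils. For such genes the filter itself favours a gap between the libraries. By this rule 26 of the 50 genes were measured in at least 1 of the 6 classes, 14 of them in all 6, and 24 in none. Of the 21 genes measured in 3 or more classes, 10 had their highest class in common between the libraries. For 7 of these it was B cells (Usp4, Usp10, Usp15, Usp22, Usp24, Usp34 and Usp47), for Usp12 and Usp48 NK cells, and for Usp3 T cells. For Usp4, Usp10, Usp22 and Usp47 B cells did not exceed the next class beyond counting error in either library. For Usp24 and Usp3 in WT, and for Usp34 in the library labelled Otud1-/-, the lead was also within counting error. Across the 6 classes the median Spearman rho between libraries over the measured genes was 0.771, a description only, since all genes share the same cells and class totals. Neutrophils were the lowest class of 9 of the 21 genes in both libraries. Neither this count nor that of shared highest classes was made over all genes, so neither can be read as particular to the USP genes.

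Usp32 (chr11:84984442-85140161), a membrane-anchored USP of the Golgi and endosomes that acts on Rab7, was the most marked for a single class among the measured USP genes. Neutrophils had 72.7 CPM in the library labelled Otud1-/- (64.3 to 82.0) and 44.1 CPM in WT (35.4 to 54.2). Monocytes/macrophages came next, with 24.0 CPM in the library labelled Otud1-/- and 22.2 CPM in WT, and the other 4 classes lay between 10.4 and 14.6 CPM in the library labelled Otud1-/- and between 14.3 and 19.5 CPM in WT. The neutrophil level was 3.03 times that of the next class in the library labelled Otud1-/- (2.49 to 3.68) and 1.99 times in WT (1.53 to 2.56). Neutrophils therefore stood clear of every other class in both libraries. Usp2, known as a clock-controlled USP, was also highest in neutrophils, with 22.7 CPM in the library labelled Otud1-/- and 20.3 CPM in WT. Its margin over monocytes/macrophages was 1.62 in the library labelled Otud1-/- (1.20 to 2.19) and 1.43 in WT (0.985 to 2.05), so the WT interval reached 1.

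NK cells were marked by Usp12 and Usp48. Usp12 (chr5:146734809-146795006), which works with the cofactor Wdr48, had 87.9 CPM in NK cells of the library labelled Otud1-/- (71.0 to 108) and 101 CPM in those of WT (81.5 to 124). T cells followed, with 64.0 CPM in the library labelled Otud1-/- and 59.6 CPM in WT, and neutrophils were lowest, with 18.3 and 37.1 CPM in that order of libraries. The order of the 6 classes was identical in both libraries. NK cells exceeded T cells 1.37 times in the library labelled Otud1-/- (1.08 to 1.74) and 1.69 times in WT (1.33 to 2.13). Its paralog Usp46, with a Cys box differing in 6 of 39 bases, had 1.89 CPM in NK cells of the library labelled Otud1-/- and 5.43 CPM in WT NK cells. Usp48 had 56.7 CPM in NK cells of the library labelled Otud1-/- and 67.3 CPM in WT, and exceeded the next class 1.53 times in the library labelled Otud1-/- (1.15 to 2.01) and 1.70 times in WT (1.26 to 2.25). The next class was B cells in the library labelled Otud1-/- and T cells in WT.

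Among T cells, Usp3 (chr9:66514637-66593142), a histone H2A deubiquitinase, had 68.4 CPM in the library labelled Otud1-/- and 65.6 CPM in WT. It exceeded the next class, B cells, 1.46 times in the library labelled Otud1-/- (1.27 to 1.68), whereas in WT the next class was NK cells and the ratio was 1.08 (0.814 to 1.45). Usp53 had 28.2 CPM in T cells of the library labelled Otud1-/- against 17.2 CPM in its B cells, a ratio of 1.65 (1.31 to 2.07). In WT, T cells at 18 CPM and B cells at 18.1 CPM did not differ beyond counting error (ratio 0.991, 0.754 to 1.30). Usp53 passed the level filter in T cells through the library labelled Otud1-/- alone. That favours a T cell lead in that library, so the ratio is no independent check of it. By these values T cells stood above B cells in the library labelled Otud1-/- and level with them in WT, and whether the libraries differ in this was not tested. Nor was the part of the B cell markers found in T cells, which are given below.

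B cells had the highest level of several of the abundant genes. Usp34 had 131 CPM in B cells of the library labelled Otud1-/- (125 to 138) and 164 CPM in those of WT (154 to 175). T cells followed closely, at 125 CPM in the library labelled Otud1-/- and 134 CPM in WT, so that B cells exceeded them 1.05 times in the library labelled Otud1-/- (0.953 to 1.16) and 1.22 times in WT (1.11 to 1.34). Usp24, a large relative of Usp9x, had 54.1 CPM in B cells of the library labelled Otud1-/- and 62.6 CPM in WT, and its lowest level was 7.38 CPM, in the neutrophils of the library labelled Otud1-/-. For Usp24, B cells exceeded T cells 1.59 times in the library labelled Otud1-/- (1.33 to 1.91). In WT the next class was NK cells and the interval reached 1 (ratio 1.34, 0.977 to 1.89). Usp15 had 106 CPM in B cells of the library labelled Otud1-/- and 111 CPM in WT B cells. Usp33, which acts on the receptor Robo1, was measured in B cells alone, at 18.7 CPM in the library labelled Otud1-/- and 22.3 CPM in WT. Its B cell level was 1.24 times that of T cells in the library labelled Otud1-/- (0.942 to 1.66), an interval that included 1. In WT it was 1.48 times that of monocytes/macrophages, the next class (1.16 to 1.89).

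**Figure D2:**
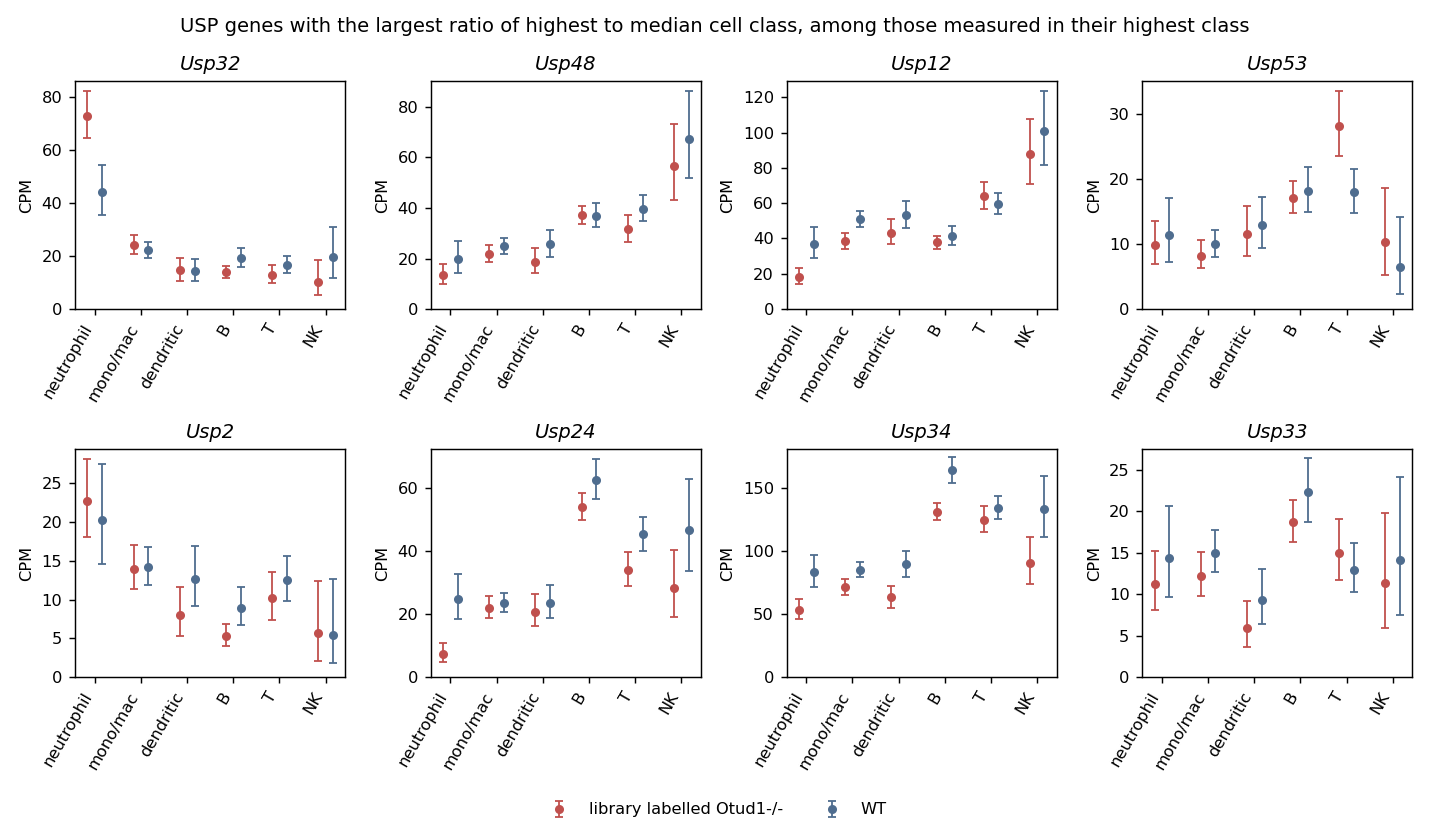
CPM of the 8 USP genes with the largest ratio of highest to median class, among the 26 genes measured in a class, by class, with the library labelled Otud1-/- (red, left) and WT (blue, right) and exact Poisson 95% intervals. The highest class is neutrophils for Usp32 and Usp2, NK cells for Usp48 and Usp12 and B cells for Usp24, Usp34 and Usp33 in both libraries. For Usp2 and Usp24 in WT the interval of the ratio to the next class includes 1. The same holds for Usp34 and Usp33 in the library labelled Otud1-/-. Usp53 is highest in T cells of the library labelled Otud1-/-, with B and T cells level in WT.

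Of the 26 genes measured in a class, 6 were higher in the unnamed cluster 2 than in any named class, in both libraries. These were Usp1, Usp7, Usp10, Usp14, Usp37 and Usp39, and Usp1, Usp7 and Usp10 were so in cluster 13 too. Neither count was made over all genes, so neither can be read as particular to the USP genes. The smaller clusters 18 (27 and 136 cells, led by Cenpf and Ccnb1) and 22 (16 and 164 cells, led by histone genes) were not compared gene by gene. Their summed USP levels were 1350 and 1334 CPM in the library labelled Otud1-/-, and 1337 and 1434 CPM in WT. Whether the 6 genes are also high there was not tested. Usp1 (chr4:98923810-98935543), which removes ubiquitin from PCNA and Fancd2 during replication and repair, had 186 CPM in cluster 2 of the library labelled Otud1-/- (168 to 206) and 150 CPM in that of WT (136 to 165). In the 6 named classes it did not exceed 53.8 CPM in the library labelled Otud1-/- or 48.3 CPM in WT. Usp7 had 157 CPM in cluster 2 of the library labelled Otud1-/- and 125 CPM in WT, and 143 and 157 CPM in cluster 13, again with the library labelled Otud1-/- first. Usp37, a USP that acts at the G1/S transition, had 56.0 CPM in cluster 2 of the library labelled Otud1-/- and 43.0 CPM in WT. Usp39, a splicing factor of the USP fold, had 40.9 CPM there in the library labelled Otud1-/- and 43.0 CPM in WT. Usp28, a stabiliser of Myc, reached 20.5 CPM in cluster 13 of the library labelled Otud1-/- and 17.0 CPM in WT. Not every gene was high in cluster 2: Usp12 had 22.9 CPM in the library labelled Otud1-/- and 23.3 CPM in WT there, and Usp3 had 19.5 and 24.4 CPM. Of the USP genes measured in cluster 2 (22) and in cluster 13 (22), none differed 1.5-fold between the libraries, beside 3.59% of all genes higher and 4.96% lower in cluster 2, and 3.16% higher and 4.67% lower in cluster 13.

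Summed over the 50 genes, the USP level was 1228 CPM in the library labelled Otud1-/- and 1313 CPM in WT (ratio 0.935, 0.924 to 0.947). The size of this gap changed with how cells were weighted. With each cell thinned to 1000 UMIs, which left out the shallower cells (289 of the library labelled Otud1-/- and 1148 of WT), the ratio was 0.996 (0.969 to 1.02), and as a mean of per-cell CPM it was 0.9997, so over whole libraries no difference beyond counting error was seen after thinning. The libraries also differed in class makeup. B cells were 2872 of 6486 kept cells in the library labelled Otud1-/- and 2088 of 11414 in WT. The part of this makeup in the whole-library ratios was not tested. Within classes the lower level was kept in part. In neutrophils the sum was 933 CPM in the library labelled Otud1-/- and 1142 CPM in WT (ratio 0.817, 0.775 to 0.862), and the thinned ratio was 0.842 (0.763 to 0.930). In dendritic cells it was 915 CPM in the library labelled Otud1-/- and 1137 CPM in WT (ratio 0.805, 0.767 to 0.843), with a thinned ratio of 0.818 (0.717 to 0.932) but a ratio of 0.949 in the mean of per-cell CPM. B cells had 1416 CPM in the library labelled Otud1-/- and 1584 CPM in WT (ratio 0.894, 0.872 to 0.917), and a thinned ratio of 0.942 (0.898 to 0.988).

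T cells had 1413 CPM in the library labelled Otud1-/- and 1426 CPM in WT (ratio 0.991, 0.960 to 1.02), and so did not differ beyond counting error. Monocytes/macrophages had 1119 CPM in the library labelled Otud1-/- and 1180 CPM in WT (ratio 0.948, 0.922 to 0.976). Their thinned ratio was 0.905 (0.828 to 0.987). NK cells had 1277 CPM in the library labelled Otud1-/- and 1498 CPM in WT (ratio 0.853, 0.790 to 0.920), with a thinned interval of 0.773 to 1.04. B, T and NK cells thus had more USP transcripts per UMI than neutrophils and dendritic cells in both libraries. Plasma cells had the lowest sums, 543 CPM in 87 cells of the library labelled Otud1-/- and 710 CPM in 282 WT cells, where immunoglobulin RNA took 52.8% of the UMIs in the library labelled Otud1-/- and 35.4% in WT. Median UMIs per cell were 2665 in neutrophils of the library labelled Otud1-/- and 1614 in WT neutrophils, and 9315.5 and 2473.5 in dendritic cells, and the part of this depth gap in the ratios was not tested beyond the thinning.

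**Figure D3:**
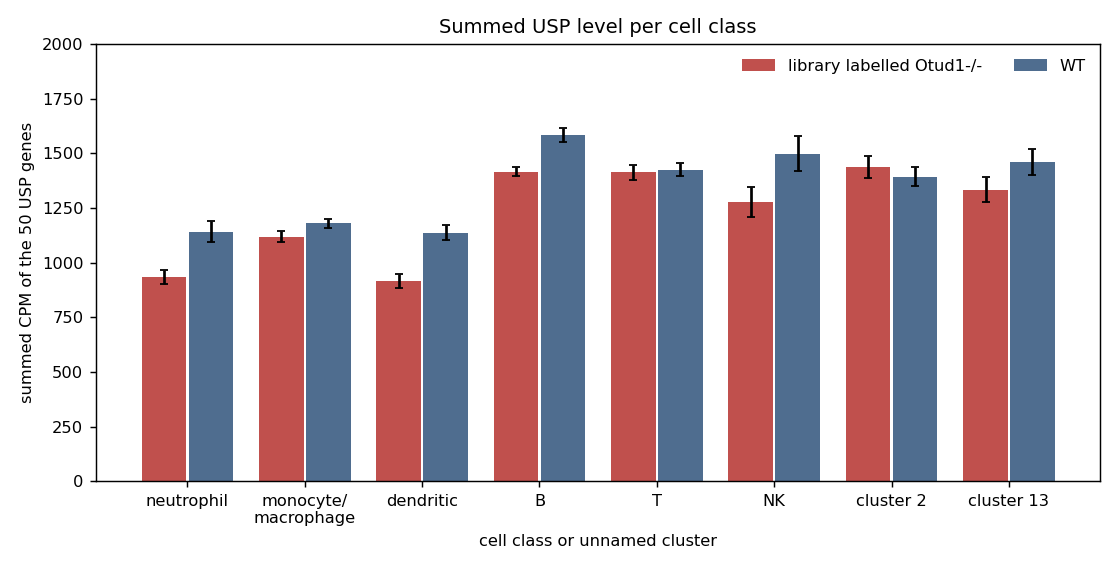
Summed CPM of the 50 USP genes in each class and in 2 unnamed clusters, with the library labelled Otud1-/- (red, left) beside WT (blue, right) and exact Poisson 95% intervals. B and T cells stand highest among the classes in the library labelled Otud1-/-, neutrophils and dendritic cells lowest in both libraries, and the bars of T cells are level.

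The 6 classes gave 124 pairs of a measured USP gene and a class. Taken as log2 of the level in the library labelled Otud1-/- over that in WT, the median ratio was -0.34 in dendritic cells (21 genes), beside -0.08 over all genes measured there. It was -0.29 in neutrophils (16 genes) beside -0.19, -0.22 in NK cells (20 genes) beside 0.01, -0.15 in B cells (23 genes) beside -0.04, -0.10 in monocytes/macrophages (21 genes) beside 0.03, and 0.02 in T cells (23 genes) beside -0.03. In dendritic cells 20 of the 21 genes lay below 0, beside 58.9% of all genes, and after thinning to 1000 UMIs per cell the median of the 7 genes still measured was 0.0037. At 1.5-fold, 3 of the 124 pairs were higher and 8 were lower in the library labelled Otud1-/-. In neutrophils that was 1 gene higher and 3 lower of 16, where 14.3% of all measured genes were higher and 29.8% lower. In NK cells it was 1 higher and 3 lower of 20, beside 6.23% higher and 8.55% lower of all genes, in T cells 1 higher of 23, beside 0.757% higher and 4.62% lower, and in dendritic cells 2 lower of 21, beside 2.40% higher and 8.38% lower. B cells and monocytes/macrophages had none, beside 0.642% higher and 1.69% lower of all genes in B cells and 4.82% higher and 3.76% lower in monocytes/macrophages. The USP counts were small, and in neutrophils they lay under the shares of all genes in both directions.

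**Figure D4:**
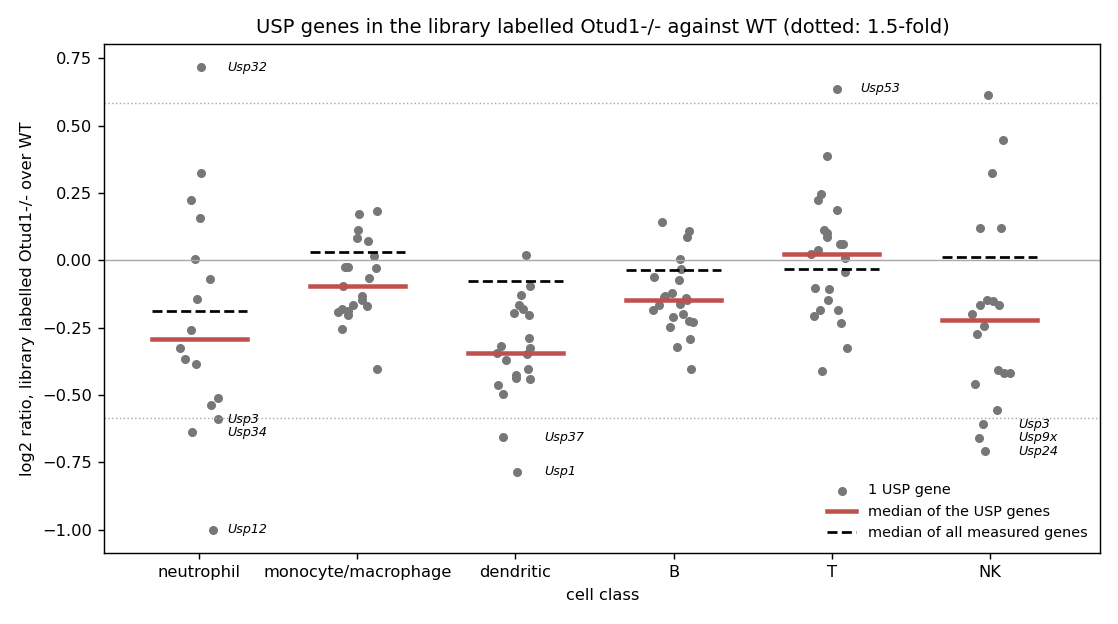
log2 ratio (level in the library labelled Otud1-/- over level in WT) for each measured USP gene (grey points) in each class, with the median of the USP genes (red line), the median of all measured genes (dashed line) and the 1.5-fold limits (dotted lines). The red line lies below the dashed line in every class but T cells, and named points are those past 1.5-fold whose interval leaves out 1.

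In neutrophils Usp32 was the only measured USP gene at least 1.5-fold higher in the library labelled Otud1-/-, with the levels given above (log2 ratio 0.72, 0.37 to 1.09). Usp12 was lowest, at 18.3 CPM in the library labelled Otud1-/- and 37.1 CPM in WT (log2 ratio -1.0, -1.52 to -0.52). Usp34 had 53.6 CPM in the library labelled Otud1-/- and 83.7 CPM in WT (log2 ratio -0.64, -0.95 to -0.34). Usp3 had 26.8 CPM in the library labelled Otud1-/- and 40.6 CPM in WT (log2 ratio -0.59, -1.04 to -0.16). Within cluster 23 alone, the log2 ratio was 0.66 for Usp32 (0.20 to 1.17), -0.77 for Usp12 (-1.45 to -0.08) and -0.88 for Usp3 (-1.44 to -0.32), but -0.23 for Usp34 (-0.68 to 0.23). The higher Usp32 and the lower Usp12 and Usp3 were therefore also seen within that cluster, and the lower Usp34 was not seen beyond counting error. In cluster 6, with 46 cells in the library labelled Otud1-/-, Usp32 had 31.5 CPM in the library labelled Otud1-/- and 44.6 CPM in WT, from 3 and 35 UMIs. The log2 ratio of Usp34 there was 0.48 (-0.49 to 1.34). In cluster 16, with 17 cells in the library labelled Otud1-/- and 117 in WT, it was -1.59 (-2.92 to -0.48). Usp34 had 35.1 CPM in cluster 16 of the library labelled Otud1-/- and 107 CPM in WT, from 8 and 37 UMIs. The log2 ratio of Usp32 in cluster 16 was -0.05 (-1.65 to 1.45), from 7 and 11 UMIs. With TMM scaling, which shifts every neutrophil log2 ratio up by 0.16, Usp34 (-0.48) and Usp3 (-0.43) missed 1.5-fold, and with at most 5% mitochondrial UMIs per cell so did Usp32 (0.57).

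**Figure D5:**
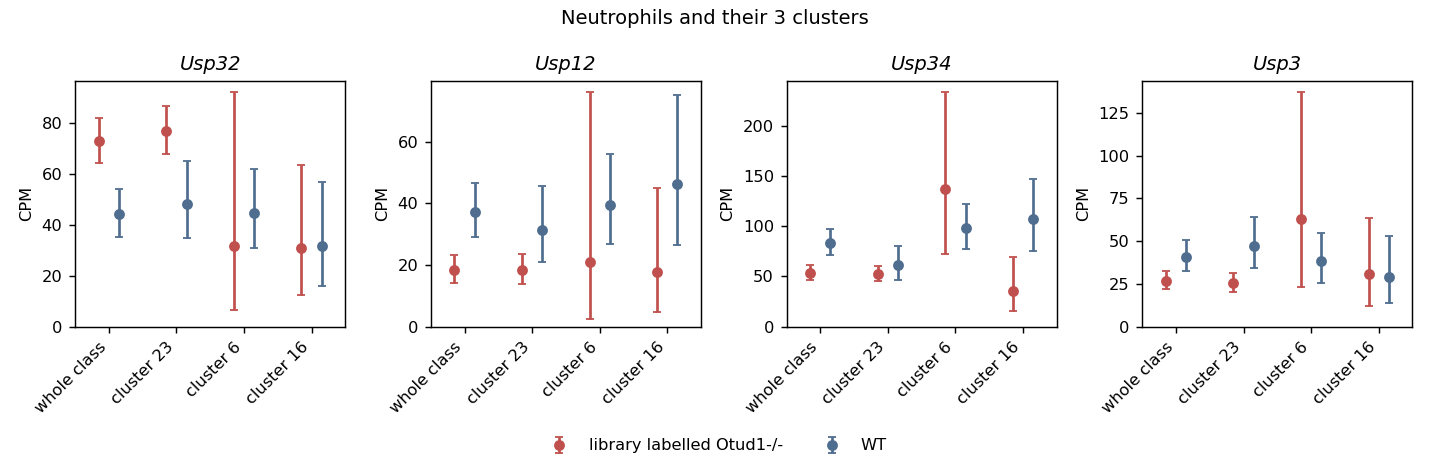
CPM of Usp32, Usp12, Usp34 and Usp3 in the neutrophil class and in its 3 clusters, with the library labelled Otud1-/- (red, left), WT (blue, right) and exact Poisson 95% intervals. Cluster 23 repeats the gap of the whole class for Usp32, Usp12 and Usp3, and the intervals of clusters 6 and 16 are wide in the library labelled Otud1-/-.

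Markers of other cells differed between the neutrophils of the libraries, in both directions. The 12 B cell markers summed to 604 CPM in neutrophils of the library labelled Otud1-/- (15.5% of their level in that whole library) and to 1992 CPM in WT neutrophils (60.3%), with all 12 detected in both. The 20 T cell markers summed to 82.0 CPM in the library labelled Otud1-/- and 668 CPM in WT, again all detected. Dendritic cell markers summed to 61.5 CPM in the library labelled Otud1-/- and 277 CPM in WT. Plasma cell markers went the other way, with 423 CPM in the library labelled Otud1-/- and 277 CPM in WT, as did erythroid markers, with 397 and 53.5 CPM in that order of libraries. Of the 12 NK markers, which summed to 21.9 CPM in the library labelled Otud1-/- and 169 CPM in WT, Eomes, Klra8 and Klra4 were at 0 in neutrophils of the library labelled Otud1-/- and none was at 0 in WT. Ribosomal protein genes took 5.87% of neutrophil UMIs in the library labelled Otud1-/- and 14.5% in WT. Of the genes under the level that was compared, Usp10, a regulator of p53, had 4.38 CPM in the library labelled Otud1-/- and 16.8 CPM in WT, and Usp24 had 7.38 and 24.7 CPM, whereas Usp18 was higher in the library labelled Otud1-/- (15.3 CPM, against 8.91 CPM in WT). These 3 were picked after their values were seen. The part of these other-cell transcripts in the neutrophil differences was not tested.

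In dendritic cells Usp1 had 18.7 CPM in the library labelled Otud1-/- (63 UMIs) and 32.6 CPM in WT (116 UMIs), a log2 ratio of -0.78 (-1.27 to -0.35). Usp37 had 21.4 CPM in the library labelled Otud1-/- and 34.0 CPM in WT, a log2 ratio of -0.66 (-1.11 to -0.24). Cluster 1, with most of the dendritic cells, had log2 ratios of -0.92 for Usp1 (-1.43 to -0.46) and -0.69 for Usp37 (-1.16 to -0.25). In the smaller cluster 21 they were 0.42 for Usp1 (-1.18 to 2.04, from 8 UMIs in each library) and -0.44 for Usp37 (-2.17 to 1.11). Both genes were among those high in cluster 2. In the mean of per-cell CPM the log2 ratios were -0.58 for Usp1 and -0.57 for Usp37, just short of 1.5-fold. Usp37 also missed 1.5-fold with median-of-ratios scaling (-0.58), with centring on all genes (-0.58) and with a prior of 5 CPM (-0.56). The T cell markers summed to 219 CPM in dendritic cells of the library labelled Otud1-/- and to 1020 CPM in WT dendritic cells, all 20 detected in both, and the B cell markers to 723 and 1196 CPM in that order of libraries. Neutrophil markers (635 CPM in the library labelled Otud1-/-, 429 CPM in WT) and NK markers (363 and 316 CPM) went the other way. The part of these markers in the result was not tested. In T cells Usp53 was 1.57 times higher in the library labelled Otud1-/- (1.21 to 2.04), and its log2 ratio was above 0 in each of the 4 T cell clusters, between 0.38 and 1.08, with intervals that each reached 0. Usp53 passed the level filter there through the library labelled Otud1-/- alone, which favours a higher value in that library. With at most 5% mitochondrial UMIs per cell its log2 ratio in T cells was 0.55, short of 1.5-fold, and so it was without doublet removal (0.55), in 1 cluster per class (0.54) and with a prior of 5 CPM (0.53). In T cells the B cell markers summed to 1334 CPM in the library labelled Otud1-/- and to 2393 CPM in WT, all 12 detected in both. The NK (977 and 670 CPM), dendritic (531 and 448 CPM) and neutrophil markers (335 and 253 CPM) went the other way. The part of these markers in the T cell levels was not tested. In NK cells Usp24 had 28.4 CPM in the library labelled Otud1-/- and 46.7 CPM in WT, a log2 ratio of -0.71 (-1.44 to -0.01), which was -0.46 at resolution 0.5 and -0.52 in the mean of per-cell CPM. Usp9x had 70.0 CPM in NK cells of the library labelled Otud1-/- and 111 CPM in WT NK cells, a log2 ratio of -0.66 (-1.11 to -0.22), which was -0.02 when every cell was thinned to 1000 UMIs. Usp3 had 39.7 CPM in NK cells of the library labelled Otud1-/- and 60.8 CPM in WT NK cells, a log2 ratio of -0.61 (-1.23 to -0.01), which was -0.18 in the mean of per-cell CPM. Usp36, a nucleolar USP, had 56.7 CPM in the library labelled Otud1-/- and 36.9 CPM in WT, but its interval included 1 (ratio 1.54, 0.993 to 2.41). The NK differences came from few molecules, between 30 and 102 UMIs per library for the 3 lower genes. B cell markers summed to 420 CPM in NK cells of the library labelled Otud1-/- and to 1423 CPM in WT NK cells, all 12 detected in both, which was likewise not tested as a part of these ratios.

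The 10 pairs past 1.5-fold whose interval left out 1 were recomputed in cells positive for Y-linked genes alone, since the libraries differed in sex. There 9 of the 10 kept their call, and Usp3 in NK cells (log2 ratio -0.47) did not. Of the 124 pairs, 37 had an interval that left out 1, with 7 higher and 30 lower in the library labelled Otud1-/-, which is 5.65% and 24.2% of the pairs, beside 19.9% higher and 24.1% lower of all pairs of a measured gene and a class. The share lower was thus near that of all genes, while the share higher was smaller. Of the USP pairs with such an interval 81.1% were lower, beside 54.8% over all genes. Whether an interval leaves out 1 depends on the UMI count, and the USP pairs were not matched to other pairs by level. With TMM scaling 7 were higher and 25 lower, beside 22.0% higher and 21.5% lower of all genes, and with median-of-ratios scaling 7 were higher and 21 lower, beside 22.5% and 21.0%. Usp34 was lower in 5 of the 6 classes by this reading, with ratios of 0.641 in neutrophils, 0.680 in NK cells, 0.708 in dendritic cells, 0.80 in B cells and 0.837 in monocytes/macrophages. In T cells its ratio was 0.932 (0.836 to 1.04). Usp9x was lower in neutrophils (0.765), monocytes/macrophages (0.868), B cells (0.870) and NK cells (0.632). Usp7 was lower in neutrophils (0.700), monocytes/macrophages (0.877) and B cells (0.879). Usp34, Usp9x and Usp7 thus lay lower in several classes, by amounts mostly under the 1.5-fold limit. Usp16 went the other way, with ratios of 1.25 in neutrophils, 1.13 in monocytes/macrophages and 1.17 in T cells. With TMM scaling the intervals of Usp9x in neutrophils and of Usp16 in monocytes/macrophages reached 1, and with median-of-ratios scaling that of Usp7 in neutrophils did too.

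Usp18 (chr6:121245906-121270917), the protease for Isg15 and a brake on interferon signalling, had 8.39 CPM in the library labelled Otud1-/- and 8.28 CPM in WT over all kept cells (318 UMIs in each). It was highest in monocytes/macrophages, at 15.9 CPM in the library labelled Otud1-/- (13.2 to 19.1) and 12.9 CPM in WT (10.7 to 15.4). Neutrophils had 15.3 CPM in the library labelled Otud1-/- (11.6 to 19.9) and 8.91 CPM in WT (5.28 to 14.1), a ratio of 1.72 whose interval reached 1 (0.995 to 3.11). The levels of these 2 classes overlapped within counting error in both libraries. B cells had 2.82 CPM in the library labelled Otud1-/- and 1.81 CPM in WT. NK cells, with 14.2 CPM in the library labelled Otud1-/- (15 UMIs) and 10.9 CPM in WT (10 UMIs), and dendritic cells, with 12.5 and 9.84 CPM in that order of libraries, lay in the same range, and T cells had 8.16 and 9.55 CPM. B cells were thus the lowest class in both libraries, and no class passed the level needed for a call. Its substrate Isg15 had 901 CPM in neutrophils of the library labelled Otud1-/- and 534 CPM in WT neutrophils (log2 ratio 0.76, 0.66 to 0.86), and 82.2 CPM in NK cells of the library labelled Otud1-/- against 33.7 CPM in WT NK cells. Of the 14 genes analysed from the list of Isg15 conjugation and interferon response, 9 were measured in neutrophils, Isg15 among those past 1.5-fold, with a median log2 ratio of -0.04. In monocytes/macrophages 10 were measured, with Ube2l6, the Isg15-conjugating enzyme, higher and a median of 0.20. NK cells had Isg15 higher of 3 measured genes (median 0.13), while dendritic (8 measured, median -0.16), B (2 measured, median -0.33) and T cells (3 measured, median 0.09) had none past 1.5-fold.

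The X-linked members were read against the sex of the cells. Usp9x had 85.4 CPM in 3003 WT cells positive for Xist alone (79.9 to 91.2) and 93.5 CPM in 2622 WT cells positive for any of 4 Y-linked genes alone (87.8 to 99.6), a ratio of 0.913 (0.833 to 1.0). In the library labelled Otud1-/-, 4083 cells were positive for the Y-linked genes alone and had 81.3 CPM of Usp9x. Usp9x was therefore not higher in the WT cells with Xist, pooled over all classes. The WT groups were not matched for class or depth, and the part of these in the ratio was not tested. Usp11, a paralog of Usp4 and Usp15, had 7.78 CPM in the library labelled Otud1-/- and 8.62 CPM in WT over all kept cells, with B cells at 13.6 and 12 CPM in that order of libraries. Usp27x had 0.396 CPM in the library labelled Otud1-/- and 0.573 CPM in WT. Usp9y had no UMI in any of the cells with Y-linked UMIs, and its Cys box differs from that of Usp9x in 2 bases of 39.

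Cofactors and other deubiquitinases gave few calls. Of the 6 USP cofactors, 3 were measured in neutrophils. Eny2, a subunit of the Usp22 module of SAGA, was lower there in the library labelled Otud1-/- (13.7 CPM, against 48.5 CPM in WT). Of all genes, 29.8% were lower there. Under the level that was compared, Gmps had 11.2 CPM in neutrophils of the library labelled Otud1-/- and 27.7 CPM in WT. Its log2 ratio was -1.27 (-1.92 to -0.70). Wdr20 had 9.02 and 20.3 CPM in that order of libraries (log2 ratio -1.13, -1.88 to -0.47). In dendritic cells 5 were measured, and Atxn7, of the same module as Eny2, was lower (25 CPM, against 40.2 CPM in WT). There 8.38% of all genes were lower. No other class had a measured cofactor past 1.5-fold. Wdr48, the partner of Usp1, Usp12 and Usp46, had 36.9 CPM in NK cells of the library labelled Otud1-/- and 27.1 CPM in WT NK cells (log2 ratio 0.44, -0.32 to 1.23). The counts that follow are of genes above the level filter, to be read beside the shares of all genes given above. Of the 14 OTU proteases, 6 were measured in neutrophils, with 2 lower (Otub1 and Otulin) where 29.8% of all genes were lower. B cells had 10 measured, with 1 higher and 1 lower (Otud1 and Tnfaip3), T cells 8, with 1 higher and 1 lower (Otud1 and Otulin), and NK cells 7, with 1 lower (Zranb1). Of the 7 JAMM genes, 3 were measured in neutrophils, where Psmd14 and Cops5, the proteasome and signalosome proteases, were lower. Of the 4 MINDY genes, 3 were measured there, with Mindy1 higher. No measured gene of the 4 UCH, 3 Josephin and 3 further USP-fold genes (Cyld, Pan2 and Uspl1) or of the 2 ubiquitin-activating enzymes passed 1.5-fold in the 6 classes, but in neutrophils 1 UCH, 1 USP-fold and no Josephin gene were measured. Under the filter lay Uchl3 in neutrophils (11.5 CPM in the library labelled Otud1-/-, 25.7 CPM in WT, log2 ratio -1.13, -1.79 to -0.55), Uspl1 in neutrophils (5.20 and 17.3 CPM in that order of libraries) and Bap1 (6.83 and 12.6 CPM) and Pan2 (5.35 and 9.84 CPM) in dendritic cells, each more than 1.5-fold lower with an interval that left out 1. Of the 4 ubiquitin genes, all measured in neutrophils, 2 were lower there. Among them Rps27a, which encodes ubiquitin fused to a ribosomal protein, had 1800.2 CPM in the library labelled Otud1-/- (6583 UMIs), against 2755 CPM in WT. Ribosomal protein genes as a whole took 5.87% and 14.5% of neutrophil UMIs in that order of libraries. No ubiquitin gene passed 1.5-fold in the other classes, where their median log2 ratio lay between 0.06 (monocytes/macrophages) and 0.37 (T cells).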

How the data were processed

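The authors deposited 1 matrix of whole-number UMI counts per library, not normalised, as the file headers and the values show. Cell Ranger 5.0.0 and Seurat 3.2.3 with the mm10 build are named in the submitters' processing notes, whereas the matrix headers name Cell Ranger 6.0.1. The kit was 10x 3′ version 3.1, per the labels' protocols. Barcodes with under 200 genes or over 15% mitochondrial UMIs were dropped. Simulated doublets (2 per cell) gave an automatic threshold that marked 0 cells in either library, so the top scores at 0.8% per 1000 barcodes were removed (450 cells of the library labelled Otud1-/-, 1355 of WT). The libraries were clustered jointly in scanpy 1.11.5 (counts scaled to 10000 and logged, 2000 variable genes, 30 components, 20 neighbours, Leiden resolution 1), without USP, sex-linked, immunoglobulin, T cell receptor, ribosomal and mitochondrial genes and Otud1. Clusters were named by the single class with most markers, at least 3, in their top 50 genes, provided no other class had more in the top 10 and none was tied, by a rule set after the data were seen.

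UMIs were summed per class and library and scaled to CPM, and log2 ratios have a prior of 0.5 CPM. Intervals are exact Poisson (levels) and exact conditional binomial (ratios), at 95%. Called means at least 1.5-fold, with no p-value. The calculation was tested on simulated counts. The genes described in full were the 10 most abundant, the 8 most marked for a class among those measured in it, those called in a class with an interval leaving out 1, the sex-linked ones and Usp18 with the interferon list. The USP genes, gene lists and markers were chosen with earlier results of these data known. Some listed genes are not reported here. Alternative scaling used edgeR 4.0.16 in R 4.3.3.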

Additional observations from a re-analysis of the deposited data

Results flagged for a closer look

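Usp25 and Usp37 lay on different sides in different classes, each with intervals that left out 1, and the difference between classes was not tested. Usp25, a USP of inflammatory signalling, had a log2 ratio (level in the library labelled Otud1-/- over level in WT) of 0.18 in monocytes/macrophages (84.9 CPM in the library labelled Otud1-/-, 74.7 CPM in WT), of -0.35 in dendritic cells (48.4 and 61.8 CPM in that order of libraries) and of -0.29 in B cells (51.3 and 63.0 CPM). Usp37 had a log2 ratio of -0.66 in dendritic cells (21.4 CPM in the library labelled Otud1-/-, 34.0 CPM in WT) and of 0.39 in T cells (35.3 CPM in the library labelled Otud1-/-, 26.9 CPM in WT). With TMM scaling the intervals of Usp25 in monocytes/macrophages and dendritic cells reached 1. With 124 intervals at 95%, some leave out 1 by counting error alone.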

How the results depend on the processing

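No paired analysis was possible because each genotype had 1 library, and for the same reason no replicate could be left out. Of 378 checks of the main values, 329 stayed within a set limit and 49 moved. The limit was the interval for the summed ratio, and 1.5 times for counts and class ratios. A class median could move by the distance from the middle to an end of the log2 interval of that class's summed USP ratio. That limit is not the counting error of the median itself. The summed USP ratio (0.935) was 0.951 with TMM and with median-of-ratios scaling, 0.897 at 5% mitochondrial UMIs, 0.900 in cells positive for Y-linked genes alone (Y-linked cells), 0.996 after thinning and 0.99968 as a mean of per-cell CPM. The neutrophil median (-0.29) was -0.14 with TMM and -0.10 with median-of-ratios scaling, which shift all neutrophil ratios by 0.16 and 0.19, -0.46 without a level filter, -0.16 at 40 CPM, -0.14 thinned, -0.19 per cell, -0.10 in 1 cluster per class, -0.12 in cluster 23 alone and -0.10 centred on all genes. The monocyte/macrophage median (-0.10) was -0.14 at 5% mitochondrial UMIs, -0.00011 in Y-linked cells, -0.023 per cell and -0.17 in 1 cluster. The dendritic median (-0.34) was -0.27 with TMM, -0.26 with median of ratios, -0.23 at 40 CPM, 0.00 thinned (0.0037, 7 genes), -0.10 per cell and -0.27 centred, and at resolution 0.5 its cluster had no name and gave no value. Thinning gave -0.031 in B cells and -0.022 in NK cells (3 genes). The T cell median (0.02) was -0.087 at 5% mitochondrial UMIs, -0.10 without a filter, 0.086 in Y-linked cells, -0.052 thinned and -0.023 in 1 cluster.

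The count of pairs higher (3) was 1 at 5% mitochondrial UMIs, without doublet removal, at 40 CPM, in 1 cluster per class and with a prior of 5 CPM, and 9 without a filter. The count lower (8) was 5 with median-of-ratios scaling, per cell, with the larger prior and centred, 37 without a filter, 2 at 40 CPM and 3 at resolution 0.5. Genes sharing their highest class (10 of 21) numbered 22 of 43 without a filter and 3 of 11 at 40 CPM. The WT ratio of B cells to the median class for Usp33 (1.56) was 0.92 in Y-linked cells and 2.42 thinned. The neutrophil ratios of 3 genes turned sign in cluster 6 alone, which has 46 cells in the library labelled Otud1-/-: Usp3 to 0.72, Usp32 to -0.49 and Usp34 to 0.48. Of 158 checks of single called pairs, 34 kept their direction and missed 1.5-fold, among them Usp3 in neutrophils (8 of 16), Usp34 in neutrophils (7 of 16) and Usp3 in NK cells (5 of 16), and Usp12 in neutrophils kept its call in all 16. The alternatives of cluster 23 alone, of centring and of rescaled intervals were chosen after seeing the data. The cause of these shifts was not tested.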
